A study of Mus musculus with 2 samples.

Results

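The hair follicle stem cell genes are 9 genes used to mark the stem cell compartments of the mouse follicle: Lgr5, Lgr6, Lrig1, Cd34, Sox9, Lhx2, Nfatc1, Tbx1 and Foxc1. They were taken by name from the 24421 genes of the deposited count table, and all 9 were found. Of its 2 libraries of whole-layer skin, both from wild type C57BL6/J mice, 1 is from dorsal skin held under 33% strain until day 5 and 1 is the control, skin that was not stretched, taken on day 5. The methods describe 8-week-old female mice in telogen, the resting phase of the hair cycle, and a device glued to the back whose strain was raised each day. They also describe waxing to synchronise the hair cycle before stretching in the next telogen, and which of these mice gave the libraries is not stated. The labels do not give the number of mice behind a library, and they do not say whether the control mouse wore the device.

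The follicle renews its hair in cycles of growth (anagen), regression (catagen) and rest (telogen). The bulge, a niche in the outer root sheath where the arrector pili muscle attaches, holds slow-cycling stem cells that are marked in mice by Cd34, Sox9, Lhx2, Nfatc1, Tbx1 and Foxc1. The hair germ below it is among the parts marked by Lgr5 and is the first part to divide when a new anagen begins. The isthmus above it holds cells marked by Lgr6 and Lrig1, which serve the upper follicle, the sebaceous gland and the neighbouring epidermis. Several of these genes are also used outside the follicle, Cd34 in endothelium and dermal mesenchyme and Nfatc1 in endothelium and blood cells. In whole skin, fewer cells of a type and less RNA per cell cannot be told apart.

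Of the 9 genes, 7 were lower in stretched skin than in control skin and 2 were higher, where 61.5% of all measured genes were lower and 38.5% higher. Foxc1, Tbx1 and Lgr6 were the lowest relative to control, at 0.453, 0.506 and 0.539 of the control level. Nfatc1 was 1.60 times the control level, and Cd34, the gene with the most counts, was at 1.06 when scaled by total counts. With 1 library per condition no difference has a replicate check and no p-value is given. Each ratio carries an exact 95% Clopper-Pearson interval, which covers counting error only, and the comparison is of these libraries and not of the conditions.

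The control library held 14152379 counts and the stretched library 11648655, so that 3 counts correspond to 0.212 and 0.258 CPM, the unit of counts scaled by the total count of a library. Over the 16255 measured genes, those with more than 3 counts in 1 library or both, the log2 fold changes had a median of -0.12. All 9 genes were above that floor. No exonic base of the 9 genes lies in another gene on the same strand. At most 1.22% of the 76-base stretches of any of them, the length of a read, also occur in another gene. On the opposite strand, Cd34 shares 2.03% of its exonic bases with Gm16897 and Lrig1 2.58% with Slc25a26, and whether the counting used strand is not given. Markers of the growing follicle were present in the control library although the methods describe telogen mice. The 12 hair matrix and shaft genes summed to 9862 CPM in control skin and 1888 CPM in stretched skin, and all 12 were lower. The 8 proliferation genes summed to 801 CPM and 439 CPM, and all 8 were lower. The basal keratinocyte genes, which mark the interfollicular and follicular epithelium alike, went both ways around a median of 0.01, and Krt5 among them had 61216 and 50601 counts.

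The sequences before the start of 4 of the genes are shown because they belong to the 3 genes with the lowest ratios, Foxc1, Tbx1 and Lgr6, and to Cd34, which had the ratio nearest to 1. They are RefSeq sequences of the build GRCm38.p6 (mm10), 5′ to 3′ on the strand of the gene, ending before the annotated start of the gene, at chr13:31806396-31806632 (plus strand) for Foxc1, chr16:18590672-18590921 (minus strand) for Tbx1, chr1:135105277-135105526 (minus strand) for Lgr6 and chr1:194938571-194938818 (plus strand) for Cd34. Capitals mark matches on either strand to the 7 motifs searched. These were the TATA box with the letters TATAAA, the CCAAT box with its own letters, the GC box as GGGCGG, the E-box as CACGTG, the motif of TCF and LEF factors as CTTTGA, that of NFAT factors as GGAAAA and that of SOX factors as AACAAT.
Foxc1: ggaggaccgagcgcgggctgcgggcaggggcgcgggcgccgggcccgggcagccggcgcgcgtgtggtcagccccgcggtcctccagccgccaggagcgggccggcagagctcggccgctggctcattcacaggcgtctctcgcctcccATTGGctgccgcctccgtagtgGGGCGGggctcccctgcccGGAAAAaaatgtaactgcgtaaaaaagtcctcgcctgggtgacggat
Tbx1: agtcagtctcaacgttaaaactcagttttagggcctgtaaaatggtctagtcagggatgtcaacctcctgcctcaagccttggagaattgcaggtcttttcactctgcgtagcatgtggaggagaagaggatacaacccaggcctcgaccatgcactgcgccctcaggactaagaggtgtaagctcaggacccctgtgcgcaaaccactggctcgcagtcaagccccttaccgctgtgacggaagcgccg
Lgr6: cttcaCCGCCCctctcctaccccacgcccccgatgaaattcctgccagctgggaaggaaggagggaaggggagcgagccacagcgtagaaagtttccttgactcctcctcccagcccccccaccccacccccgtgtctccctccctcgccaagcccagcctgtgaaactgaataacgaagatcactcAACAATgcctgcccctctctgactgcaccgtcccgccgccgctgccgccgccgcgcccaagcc
Cd34: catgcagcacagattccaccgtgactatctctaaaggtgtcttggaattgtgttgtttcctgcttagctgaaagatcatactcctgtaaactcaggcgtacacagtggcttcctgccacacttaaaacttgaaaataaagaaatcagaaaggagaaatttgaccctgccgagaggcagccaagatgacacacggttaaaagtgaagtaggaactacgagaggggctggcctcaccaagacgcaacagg
The window before Foxc1 held 1 GC box, 1 CCAAT box and 1 NFAT motif, and that before Lgr6 held 1 GC box and 1 SOX motif. Those before Tbx1 and Cd34 held none of the 7.

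Promoter windows were found for 6 of the genes, as 8 windows, because Lhx2 and Tbx1 have more than 1 start. Over the 250 bases before the start, which for Foxc1, Lrig1 and Cd34 reach past the sequence kept for printing because the last bases lie inside the annotated gene, the GC box was in 5 of the 8 windows (those of Foxc1, Lgr6 and Lrig1, the outer one of Lhx2 and the inner one of Tbx1), and 32.7% of all 32851 windows held it. The NFAT motif was in 2 of the 8 windows, of Foxc1 and Lhx2, and in 20.4% of all windows. The SOX motif was in 2 of the 8, of Lgr6 and Lrig1, and in 9.42% of all, and the CCAAT box in 2 of the 8, of Foxc1 and Lrig1, and in 33.85% of all. The TATA box, the E-box and the TCF and LEF motif were in none of the 8 windows and in 12.4%, 6.02% and 13.8% of all windows. The GC content of the 8 windows ran from 46.4% before Cd34 to 72.8% at the outer start of Lhx2, with a median of 67.8% against 52.4% over all windows. A match is a description of the sequence and not of a bound site.

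Lgr5 and Lgr6 encode receptors for R-spondins, secreted proteins that strengthen WNT signalling. Lgr5 (chromosome 10 of mm10, 115450311 to 115587780) was counted 737 times in the control library and 532 times in the stretched one, at 52.1 and 45.7 CPM. Its log2 fold change was -0.19 (interval -0.35 to -0.03), only 0.07 below the median of all genes. Lgr6 (chromosome 1, 134983301 to 135105276) was counted 356 and 158 times, at 25.2 CPM in control skin against 13.6 CPM under stretch. Its log2 fold change was -0.89 (interval -1.17 to -0.62), and 7.03% of the measured genes had a lower one. Lgr5 and Lgr6 therefore differed from each other by more than counting error. The ratio of Lgr5 counts to Lgr6 counts went from 2.07 to 3.37 under stretch, a log2 change of 0.70 (interval 0.38 to 1.03) that no scaling can alter.

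Lrig1 encodes a membrane protein that restrains ERBB and other growth factor receptors and keeps isthmus stem cells quiescent. It lies on chromosome 6 from 94604529 to 94700158. Its 2235 control counts and 1390 stretched counts gave 158 and 119 CPM. The log2 fold change was -0.40 (interval -0.50 to -0.31), above that of Lgr6 by 0.49 (interval 0.19 to 0.78). Of the 2 isthmus markers, the more abundant one was thus the less reduced.

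Cd34 encodes a sialomucin of the cell surface by which bulge cells are sorted. It lies on chromosome 1 from 194938819 to 194961279. Its 5088 control counts and 4423 stretched counts gave levels of 359.5 and 379.7 CPM. The log2 fold change was 0.08 (interval 0.02 to 0.14), or 0.20 above the median of all genes. Under 4 other scalings (TMM, median of ratios, upper quartile, and totals without the top 50 genes) it was 0.14 to 0.19. Cd34 supplied 39.9% of the counts of the 9 genes in control skin and 47.9% in stretched skin. Without it the other 8 summed to 541 CPM in control skin and 412 CPM in stretched skin. Of the 10 blood endothelium genes 6 had intervals above 0, 1 below and 3 across it, with summed levels of 305 and 405 CPM. All 8 dermal fibroblast genes had intervals above 0, with sums of 41114 and 77407 CPM, which were 2169 and 2480.0 CPM for the 5 genes other than the collagens Col1a1, Col1a2 and Col3a1. Their part in the level of Cd34 was not tested.

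**Figure D1:**
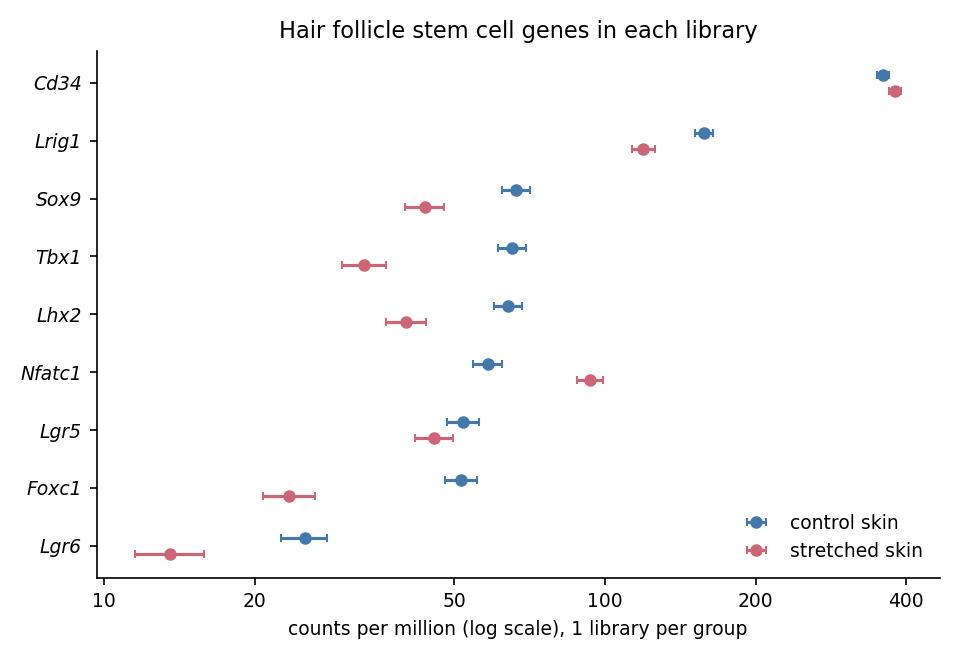
CPM on a log scale for the 9 genes in the control library (blue) and the stretched library (red), with exact Poisson 95% intervals as bars; each point is 1 library. The bars of the 2 libraries overlap for Lgr5 and for Cd34, the stretched point is lower by more than the bars for Lgr6, Lrig1, Sox9, Lhx2, Tbx1 and Foxc1, and Nfatc1 is higher at 93.6 against 58.4 CPM.

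Sox9 and Lhx2 encode transcription factors that maintain bulge cells, SOX9 by holding the outer root sheath fate and LHX2 by organising the niche. Sox9 (chromosome 11, 112782224 to 112787760) reached 941 counts in the control and 509 in the stretched library, or 66.5 and 43.7 CPM. Lhx2 (chromosome 2, 38339281 to 38369733) had 907 and 468 counts, or 64.1 and 40.2 CPM. The log2 fold changes were -0.61 for Sox9 (interval -0.76 to -0.45) and -0.67 for Lhx2 (interval -0.84 to -0.51). The change in their ratio, 0.07 on the log2 scale, had an interval from -0.16 to 0.30. A difference between these 2 genes beyond counting error was therefore not detectable.

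Tbx1 and Foxc1 encode transcription factors tied to the self-renewal and the quiescence of bulge stem cells. Tbx1 (chromosome 16, 18580979 to 18590671) reached 925 counts in the control and 385 in the stretched library, or 65.4 and 33.1 CPM. Foxc1 (chromosome 13, 31806633 to 31812476) had 732 and 273 counts, or 51.7 and 23.4 CPM. The log2 fold change was -0.98 for Tbx1 (interval -1.16 to -0.81) and -1.14 for Foxc1 (interval -1.35 to -0.94). Of the measured genes 5.64% and 4.23% had lower values. Foxc1 was the only one of the 9 at or below -1, where 5.47% of the measured genes lay, and none was at or above 1, where 6.32% lay. Tbx1 is also known in beige adipocytes, and all 7 adipocyte genes were lower in stretched skin, with summed levels of 1323 and 842 CPM. Their part in the level of Tbx1 was not tested.

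Nfatc1 encodes a calcium-responsive transcription factor that acts in bulge cells downstream of BMP signals and delays their entry into the cell cycle. With 826 control counts and 1090 stretched counts, it stood at 58.4 and 93.6 CPM. The log2 fold change was 0.68 (interval 0.55 to 0.81), and 89.5% of the measured genes had a lower one. In control skin Nfatc1 had fewer counts than Lhx2 (ratio 0.911) and in stretched skin more (ratio 2.33). Against Foxc1 the ratio was 1.13 and 3.99. Markers of other cells that use Nfatc1 also differed, with all 8 macrophage genes above 0 (sums of 518 and 1228 CPM) and 3 of 5 lymphatic endothelium genes above 0, none below and 2 across it (sums of 123 and 191 CPM, or 69.9 and 86.9 CPM without Pdpn, which other skin cells also express). Ccl21a of that last list was listed at 0 in both libraries. Their part in the level of Nfatc1 was not tested.

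By counting intervals, 7 of the 9 genes were wholly below 0 and 2 wholly above. Among all measured genes 33.5% were wholly below 0 and 18.1% wholly above. Intervals narrow with depth, and among the 8510 genes with at least as many counts as Lgr6, 45.3% were below and 21.4% above. The median of the 9 log2 fold changes was -0.61, against -0.12 over all genes. The methods filter genes on EV, the product of both FPKM values, above 10 and call a fold of at least 2 or at most 0.5. Here 1 was added to each FPKM in both the product and the fold, which loosens the filter. By this rule 0 of the 9 genes were upregulated and 0 downregulated, where 2.61% and 2.44% of the 10910 genes past the filter were. All 9 passed this looser filter, whereas 8 passed the product with nothing added, where Lgr6 was at 7.27 and 9684 genes of the table passed. Foxc1 lay just inside 2-fold on the FPKM + 1 scale, with a log2 fold change of -0.98, and Tbx1 was next at -0.91. With nothing added to the product and the fold, Foxc1 was downregulated and no other of the 9 genes was called, where 2.86% of the 9684 genes were downregulated and 2.94% upregulated.

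**Figure D2:**
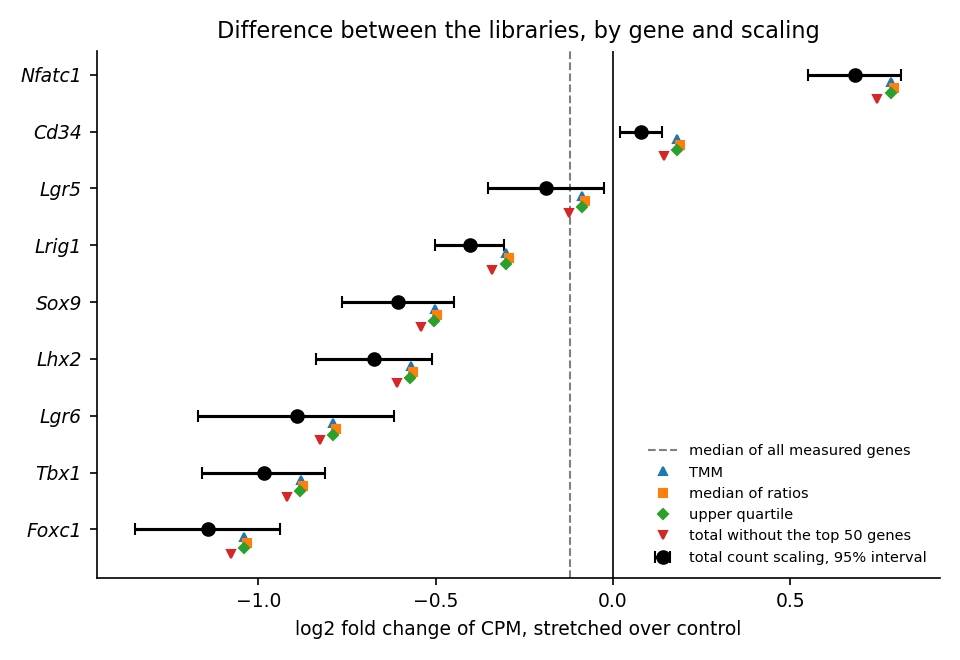
Log2 fold change of CPM in stretched over control skin for the 9 genes (black points) with 95% counting intervals, the same value under 4 other scalings (coloured symbols), and the median of all measured genes (dashed line at -0.12). The genes run from Foxc1 at -1.14 to Nfatc1 at 0.68, and Lgr5 is the only one whose interval includes the dashed line.

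Scaling by TMM, median of ratios, upper quartile, or by totals that leave out the top 50 genes, moved every log2 fold change up by 0.06 to 0.11 and reversed none of the 9. Cd34 moved out of its main interval under each of the 4 and Lrig1 under 3 of them, to between -0.30 and -0.29. The interval of Lgr5 included 0 under each of the 4 (with TMM -0.25 to 0.08), which left 6 genes wholly below 0.

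Ratios between 2 of the genes within a library do not depend on the scaling. Of the 36 pairs, 30 had a change in ratio whose exact conditional 95% interval did not include 0. The 6 other pairs were Foxc1 with Tbx1, Foxc1 with Lgr6, Tbx1 with Lgr6, Lgr6 with Lhx2, Lgr6 with Sox9, and Sox9 with Lhx2. For these a difference beyond counting error was not detectable, while Lrig1, Lgr5, Cd34 and Nfatc1 each differed beyond it from every other of the 9 genes. These intervals were not corrected for the 36 pairs and do not cover differences between mice or libraries. The largest change was that of Nfatc1 to Foxc1, 1.82 on the log2 scale (interval 1.58 to 2.07). With 2 libraries, no likeness of patterns to other genes can be measured, and none is given.

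**Figure D3:**
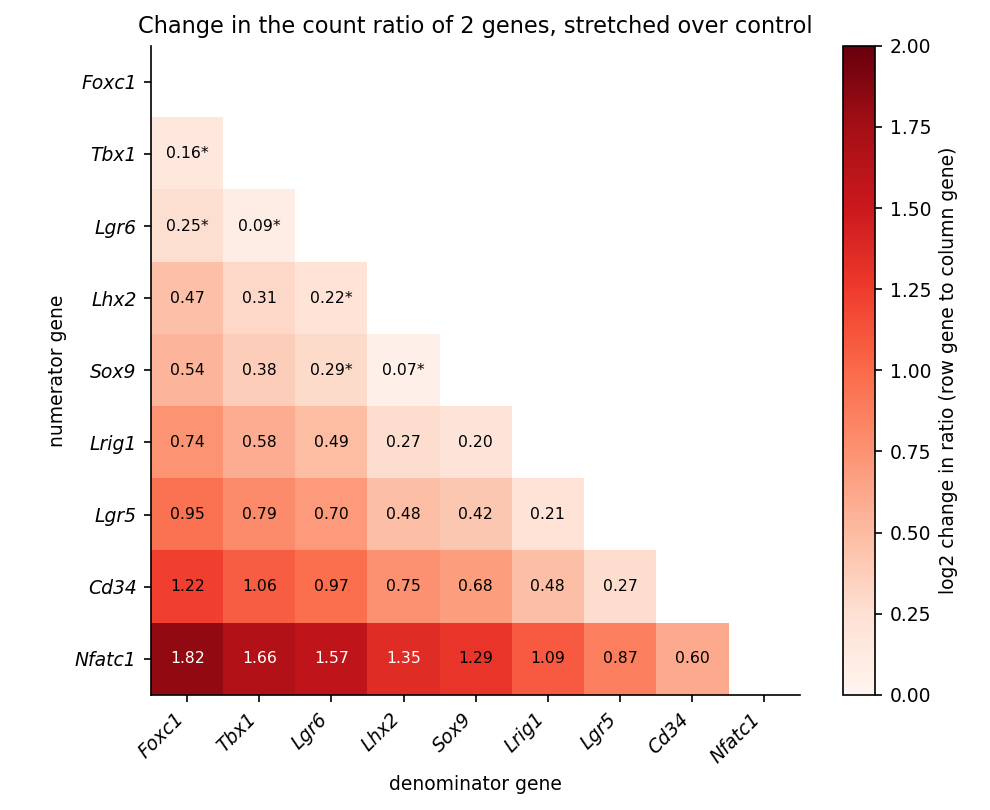
Log2 change in the ratio of counts of the row gene to the column gene, stretched over control, with genes ordered by their fold change and a star where the 95% interval includes 0. The 6 starred cells lie near the diagonal among Foxc1, Tbx1, Lgr6, Lhx2 and Sox9, and the row of Nfatc1 runs from 0.60 against Cd34 to 1.82 against Foxc1.

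Levels were compared between genes on FPKM, computed from the counts and the union of the exons of each gene, which runs from 3517 bases for Tbx1 to 10264 for Lgr5. In control skin the order was Cd34 (49.3 FPKM), Lrig1 (28.3), Tbx1 (18.6), Sox9 (16.1), Lhx2 (14.6), Foxc1 (8.85), Nfatc1 (7.81), Lgr5 (5.07) and Lgr6 (3.67), and every neighbour in it differed by more than counting error, Sox9 from Lhx2 by a ratio of 1.10 (interval 1.01 to 1.21). In stretched skin it was Cd34 (52.1 FPKM), Lrig1 (21.4), Nfatc1 (12.5), Sox9 (10.6), Tbx1 (9.40), Lhx2 (9.15), Lgr5 (4.45), Foxc1 (4.01) and Lgr6 (1.98). Here Sox9 and Tbx1, Tbx1 and Lhx2, and Lgr5 and Foxc1 did not differ beyond it. Nfatc1 went from place 7 to place 3 with these lengths, and from 6 to 3 with the length of the longest transcript. Foxc1 went from place 6 to place 8, a move that is lost with the longest transcript, where it was at place 8 in both libraries, and Lhx2 was then above Sox9 in control skin. The FPKM of Cd34 was 13.4 times that of Lgr6 in control skin and 26.3 times in stretched skin with the union of exons, and 31.1 and 61.0 times with the longest transcript. With that length Lgr5 had 10.9 FPKM in control skin in place of 5.07 and Cd34 had 117 in place of 49.3. The values thus rest on the length used, and 33 of the 36 pairs kept their order in control skin under the change.

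The relatives of these genes in their families did not share one direction. Of 16 relatives 15 were measured, of which 4 had intervals above 0, 4 below and 7 across it, with a median of 0.13. That median was the value of Sox8, on 31 and 28 counts (interval -0.66 to 0.92). Lgr4, the third receptor of its family, had 18.4 FPKM in control skin, above Lgr5 and Lgr6, and 1536 and 936 counts (log2 fold change -0.43, interval -0.55 to -0.32). Lrig3 had 856 and 477 counts (-0.56) and Lrig2 had 440 and 291 (-0.32), on the same side as Lrig1. Nfatc2, known from T cells and also expressed in muscle, had 386 and 713 counts, a log2 fold change of 1.17 (interval 0.99 to 1.35) and above that of Nfatc1. Nfatc4 had 508 and 656 counts (0.65, interval 0.48 to 0.82), while Nfatc3 had 1291 and 816 (-0.38, interval -0.51 to -0.25). Podxl, the podocalyxin gene related to Cd34 and expressed in endothelium, had 628 and 717 counts (0.47). Foxc2, with 41 and 39 counts, and Sox10, with 166 and 163, had intervals across 0 where Foxc1 and Sox9 were below it, and Lhx9 was listed at 0 in both libraries. Tbx15, a gene of dermal fibroblasts, had 26.3 and 25.5 FPKM (log2 fold change -0.05, interval -0.16 to 0.07). Of the other relatives of Tbx1, Tbx18 had 90 and 102 counts (0.46, interval 0.04 to 0.89), with 20.6% of its exonic bases in D030062O11Rik on the opposite strand, and Tbx2 and Tbx3 had intervals across 0, as had Sox8 and Podxl2.

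**Figure D4:**
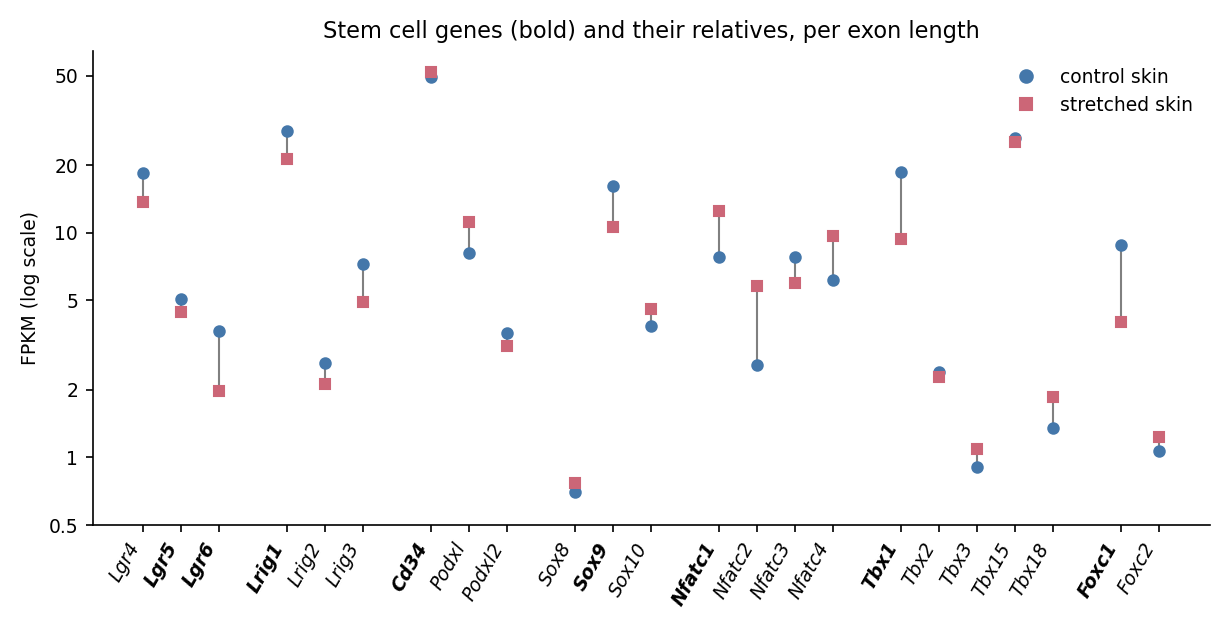
FPKM on a log scale of the stem cell genes (bold) and their family relatives in control skin (blue circles) and stretched skin (red squares), 1 library each, joined by a line. Lgr6, Tbx1 and Foxc1 show the long downward steps, Nfatc1, Nfatc2 and Nfatc4 step upward, and Cd34 and Tbx15 hardly move.

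Genes that act with the members were described from lists. In the R-spondin and LGR pathway, which includes 4 ligands and the ligases that LGR receptors restrain, all 7 genes other than Lgr5 and Lgr6 were lower in stretched skin and 5 had intervals below 0, with a median of -0.65. Rnf43, a ligase that removes WNT receptors, had 397 and 185 counts (-0.82, interval -1.08 to -0.57). Rspo2, a ligand singled out after its values were seen, had the lowest value on 39 and 9 counts (-1.83, interval -3.07 to -0.77). All 7 measured genes around Lrig1, its relatives and the receptors it restrains, had intervals below 0 (median -0.55). Among them Ret had 441 and 191 counts (-0.93, interval -1.18 to -0.68) and Erbb3 1047 and 542 (-0.67, interval -0.82 to -0.52). Erbb4 had 1 count in each library and was not measured.

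The genes around Nfatc1, which code for calcineurin, its regulators, BMP signals and NFATc1 targets, had 7 intervals below 0, 1 above and 3 across it (median -0.32), so that Nfatc1 stood apart from most of them. Bmp4 had 454 and 183 counts (-1.03, interval -1.29 to -0.78) and Bmp6, a quiescence signal of the bulge, 182 and 78 (-0.94, interval -1.34 to -0.55). Rcan1, a calcineurin regulator that NFAT proteins induce, had 2062 and 1924 counts (0.18, interval 0.09 to 0.27), and Rcan2 had 111 and 116 (0.34, interval -0.04 to 0.73). Cdk4, which NFATc1 is known to repress, had 2472 and 1588 counts (-0.36, interval -0.45 to -0.27), with 19.7% of its exonic bases in Tspan31 on the opposite strand.

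Other bulge and outer root sheath genes went both ways, with 5 of 15 intervals above 0, 7 below and 3 across it, around a median of -0.09 that turned positive (0.015) with TMM scaling. Krt15, whose protein the paper stained to mark hair stem cells, had 15280 and 9127 counts (-0.46, interval -0.50 to -0.43). Wif1, a secreted WNT inhibitor, was downregulated by the rule on FPKM + 1 with 852 and 224 counts (-1.65, interval -1.87 to -1.43), and Sostdc1, an inhibitor of BMP and WNT signals, had 792 and 324 (-1.01, interval -1.20 to -0.82). Dkk3 had 581 and 714 counts (0.58, interval 0.42 to 0.74). Postn, the periostin gene, which fibroblasts also express, was upregulated with 8261 and 15913 counts (1.23, interval 1.19 to 1.27). Of the 7 germ, isthmus and infundibulum genes, 4 had intervals below 0, 2 above and 1 across it (median -0.62). Cdh3, which encodes P-cadherin of the hair germ and matrix, had 1614 and 710 counts (-0.90, interval -1.03 to -0.78), a lower value than that of Lgr5. Prdm1 had 849 and 329 counts (-1.09, interval -1.27 to -0.90). Plet1, an isthmus gene, had 454 and 456 counts (0.29, interval 0.10 to 0.48) and 13.4% of its exonic bases in Plet1os on the opposite strand, and Krt79, a keratin of the infundibulum, had 8026 and 7280 (0.14, interval 0.09 to 0.19). Of the 8 sebaceous gland genes, a tissue that LRIG1 and LGR6 cells help to renew, 6 had intervals above 0 and 1 below (median 0.58, sums of 229 and 325 CPM). Scd3 had 163 and 631 counts (2.23), Awat1 140 and 275 (1.25) and Mc5r 67 and 35 (-0.66).

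Markers of the growing follicle were lower in stretched skin, as were 7 of the 9 stem cell genes. The 12 hair matrix and shaft genes had a median of -2.10, with Krt27 the lowest at -2.72 (21073 and 2629 counts), and 11 were downregulated, the other, Krt85, having no length and so no FPKM (1352 and 179 counts, -2.64). All 8 proliferation genes were below 0 (from -1.31 to -0.41), with Bub1 at -1.31 and Top2a at -1.14. Of the 10 dermal papilla genes 6 were below 0, 1 above and 3 across it (median -0.56), with Corin at -1.36, Wnt5a at -1.36 and Sox18 at 0.52. Of the 8 Schwann cell and melanocyte genes 4 were below 0 and 2 above, with the pigment genes Tyr at -1.72 and Tyrp1 at -1.57. The part of hair cycle stage in the values of the 9 genes was not tested.

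Other cell types of the skin went in both directions. The basal keratinocyte genes had 3 intervals above 0 and 3 below, with Itgb4 at 0.33 and Trp63 at -0.49. The 8 macrophage genes had a median of 1.34, the 8 fibroblast genes 0.83, the 5 measured lymphatic endothelium genes 0.73, the 10 blood endothelium genes 0.41 and the 6 smooth muscle genes 0.43. The lymphatic median rested on Prox1 with 22 and 30 counts (interval -0.11 to 1.59), and it was 0.52 with 1 CPM added. For the 7 mast cell genes the median was 0.51, with Cma1 at 0.82 and Kit at -0.63, and for the 7 adipocyte genes -0.77. The 10 skeletal muscle fibre genes had a median of -0.58 with 8 intervals below 0 and 2 above, and the 5 measured muscle satellite cell genes, of which 3 had intervals across 0, 0.50 on the 12 and 14 counts of Myf5 (0.30 with 1 CPM added).

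**Figure D5:**
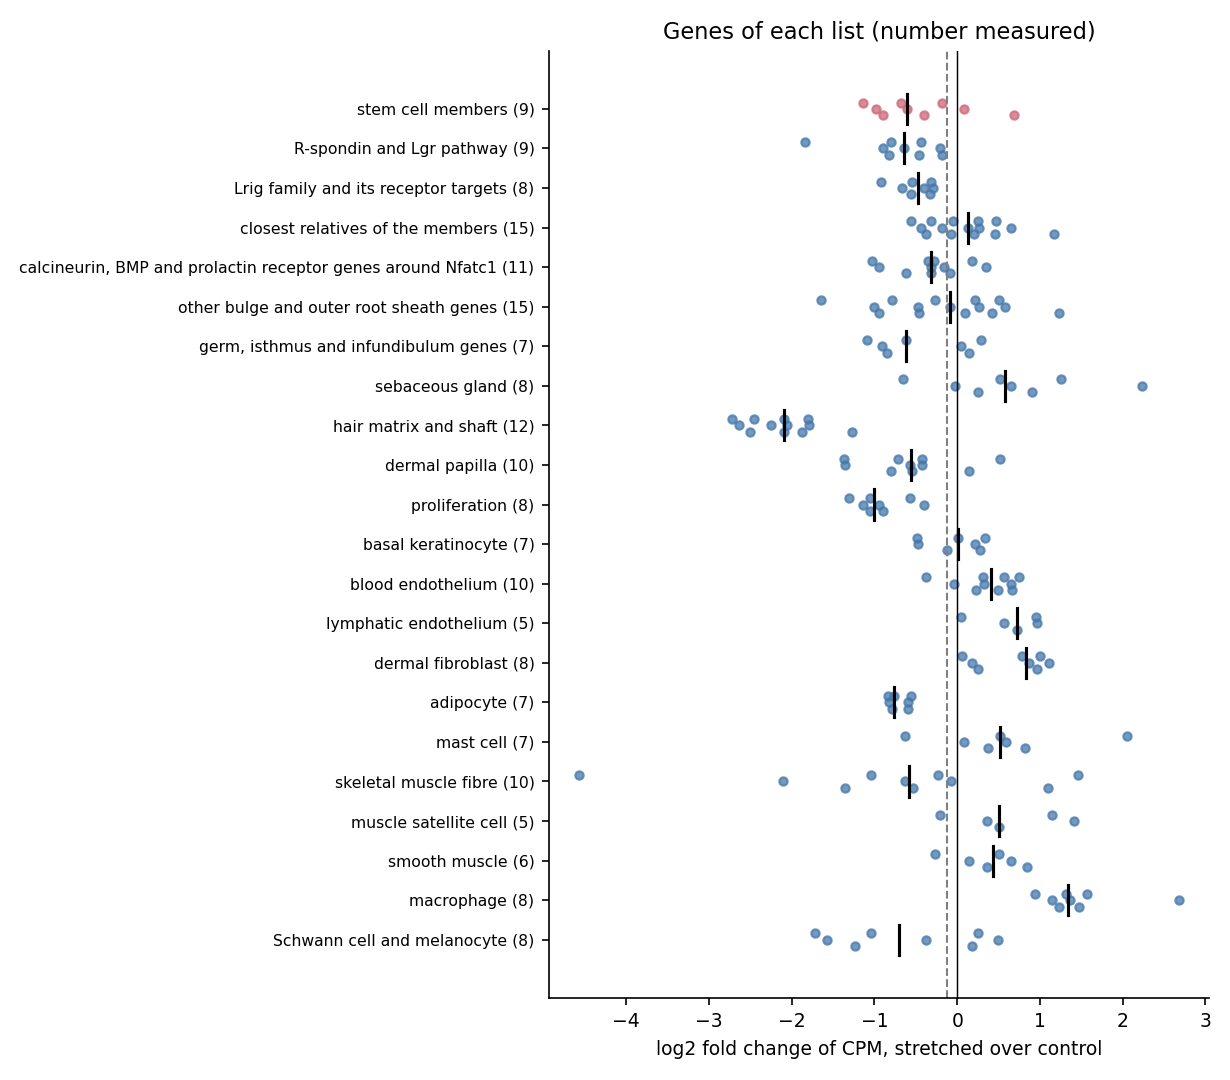
Log2 fold change of CPM in stretched over control skin for each measured gene (points) of the 9 stem cell genes (red) and 21 other lists (blue), with the median of each list as a black bar and the median of all measured genes as a dashed line. The stem cell genes spread from -1.14 to 0.68 around -0.61, hair matrix and shaft genes lie wholly to the left with a median of -2.10, and macrophage genes wholly to the right with a median of 1.34.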

How the data were processed

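RNA from 1 control library and 1 stretched library of whole-layer mouse skin was read in single reads of 76 bases. Per the methods, reads passed a FASTX-Toolkit quality filter before TopHat2 mapped them to mm10. The authors deposited raw counts of reads per gene symbol, not normalized. The counting program, its annotation and its treatment of strand are not given in the sources used here. Lengths and positions came from GENCODE M21 (GRCm38), which matched 98.4% of symbols, and promoters from RefSeq. CPM, FPKM and fold changes were computed from the counts and the total count of each library (14152379 and 11648655). Fold changes use 3 for any count below that floor, and intervals use the counts as they are. Genes past 3 counts in at least 1 library were measured. Intervals are exact at 95% (Clopper-Pearson for folds, conditional odds ratios for pairs, Poisson for levels) and cover counting error only. Calls used EV above 10 and a fold of at least 2 or at most 0.5, both on FPKM + 1. The added 1 was chosen here and loosens the filter, and the FPKM are not those of Cufflinks that the methods name.

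All 9 genes and the closest relatives were named, and from each other list genes were named among the up to 2 higher and 2 lower ones with the largest change among those with at least 50 counts over both libraries. Krt5, Krt15, Cdk4, Myf5, Prox1, Met and Rspo2 were singled out after their values were seen. Erbb4, Ccl21a, Col1a2 and Col3a1 also fall outside that rule. The members and lists were chosen with earlier results of these data known. Scaling used edgeR 4.0.16 and DESeq2 1.42.0 in R 4.3.3. Intervals came from scipy 1.17.1 in Python 3.11.15, tables from pandas 2.3.3 and figures from matplotlib 3.10.9. The calls and intervals were run on simulated counts that held counting error only, which cannot show how far mice or libraries differ. Protein sequences and the enrichment, RT-PCR and staining experiments were not used here, and the position of Nfatc1 is not reported here.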

Additional observations from a re-analysis of the deposited data

How the results depend on the processing

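No library could be left out and no replicate test could be made with 1 library per condition. No paired analysis was possible because each group has 1 library. Over the 4 scalings and 1 CPM added to both values, 45 values of the 9 genes were recomputed, none changed sign and 38 stayed inside the main counting interval, with 7 outside it. The 7 outside were Cd34 under each of the 4 scalings and Lrig1 under 3 of them. The number of genes whose interval was wholly below 0 was 6 in place of 7 under each of the 4 scalings. The median of the 9 genes ran from -0.61 to -0.49 over all 6 alternatives tried on it. No member was called in either direction under the 4 scalings, without the EV filter, with EV above 100 or with intervals wholly past 2-fold. With a pseudocount of 0, a pseudocount of 0.1, or CPM in place of FPKM, 1 member was downregulated, Foxc1. Over the whole table, EV above 100 gave 137 upregulated and 130 downregulated genes. There were 454 and 442 with CPM in place of FPKM, 285 and 277 with a pseudocount of 0, and 289 and 277 with a pseudocount of 0.1, against 285 and 266 as reported. The scalings gave 330 and 215 with TMM, 336 and 214 with median of ratios and 329 and 215 with upper quartile. Totals without the top 50 genes gave 341 and 262. The stricter filter tests fewer genes. The median of the other bulge and outer root sheath genes turned from -0.09 to 0.015 with TMM, 0.023 with median of ratios and 0.014 with upper quartile. It was the only list median of the 21 other lists that changed sign, and 25 of their recomputed values moved beyond the interval of the middle gene. Of the 9 genes, Lgr6 had the fewest counts and so the widest interval.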
